A study of Mus musculus with 16 samples.

Results

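The genes described here are 8 liver lineage transcription factors, Hnf4a, Foxa1, Foxa2, Foxa3, Cebpa, Onecut1, Prox1 and Nr5a2, chosen by name from the 40840 genes of a count table. RNA came from p53-/-; Myc hepatoblasts, a mouse hepatocellular carcinoma (HCC) model. The cells form 1 immortalized line without the tumor suppressor p53 and with overexpressed Myc, so every group shared both alterations. They received sorafenib (8.5 µM), a kinase inhibitor used against HCC, or the solvent DMSO alone, over 48 hours or 7 days. Each of the 4 groups (DMSO 48 h, sorafenib 48 h, DMSO 7 d and sorafenib 7 d) had 4 libraries. No source used here states that replicates were separate cultures, so the p-values measure the spread between these libraries, which may be technical.

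Liver identity is set by a small network of transcription factors that bind each other's genes and a shared set of liver genes. FOXA proteins are pioneer factors that open chromatin in foregut endoderm, and HNF4A then drives much of the mature hepatocyte program. C/EBPα, the product of Cebpa, promotes hepatocyte differentiation and restrains proliferation. ONECUT1 (HNF6) and PROX1 act in hepatoblasts, where they guide bile duct formation and the outgrowth of the liver bud. NR5A2 (LRH-1) is a nuclear receptor that controls bile acid and cholesterol genes.

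Libraries held 16586254 to 30828427 counted reads (median 26360677). At 3 counts, the floor used here, a gene stood at 0.0973 to 0.181 CPM, reads scaled to an equal library total,, depending on the library, and this floor covers counting error only. Sorafenib 48 h replicate 2 stood apart, with 14.1% of its counts on chromosomes 15 to 19 and X against 20.5% to 21.3% in the other 15 libraries. The 8 genes lie on chromosomes 1, 2, 7, 9 and 12, outside that region. DMSO 48 h replicates 2 and 3 and DMSO 7 d replicate 4 carried more reads of the noncoding RNAs Rmrp, Rn7sk and Rpph1, 107 to 128 CPM in sum against 5.36 to 34.1 CPM in the other 13 libraries. Trp53 had 1268 to 4799 reads and Myc 4226 to 17797 reads per library. Totals over a gene do not show which exons were read, so they did not test the p53 genotype.

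On GRCm39, with GENCODE's bounds, Foxa2 lies at chr2:147884797-147889005 (minus strand), Hnf4a at chr2:163348728-163414830 (plus), Foxa3 at chr7:18747209-18757471 (minus) and Cebpa at chr7:34818718-34821353 (plus). Onecut1 lies at chr9:74769118-74800594 (plus), Foxa1 at chr12:57587414-57593702 (minus), Nr5a2 at chr1:136770303-136888186 (minus) and Prox1 at chr1:189850232-189904637 (minus). All are protein-coding, and counts were summed over the exons of each gene.

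Of the 8 genes, 2 were abundant, Foxa2 and Cebpa, each with a mean of at least 100 counts over the 16 libraries. That level was reached by 26.1% of all genes counted. The other 6 had between 0 and 23 reads in all 16 libraries together. The region before the annotated start of the 2 abundant genes is given with that of Foxa3, a near-silent FOXA gene, as the regulatory context of the contrast in level. The bases are from RefSeq's promoter set (GRCm38.p6) and each was found once in GRCm39, on the strand of its gene. They are written 5′ to 3′ and end at the base before the first annotated base of the gene in GENCODE. Capitals mark a match to 1 of 10 motif spellings searched on both strands, which were chosen after the counts had been seen.
Foxa2, chr2:147889006-147889139, minus strand: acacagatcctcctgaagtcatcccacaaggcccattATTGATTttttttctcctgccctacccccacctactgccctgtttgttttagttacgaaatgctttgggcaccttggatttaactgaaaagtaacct
Cebpa, chr7:34818468-34818717, plus strand: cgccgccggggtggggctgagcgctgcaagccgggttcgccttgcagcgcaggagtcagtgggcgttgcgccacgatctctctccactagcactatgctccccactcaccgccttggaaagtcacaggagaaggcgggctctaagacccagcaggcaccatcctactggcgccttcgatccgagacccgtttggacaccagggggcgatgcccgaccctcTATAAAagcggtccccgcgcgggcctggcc
Foxa3, chr7:18757472-18757714, minus strand: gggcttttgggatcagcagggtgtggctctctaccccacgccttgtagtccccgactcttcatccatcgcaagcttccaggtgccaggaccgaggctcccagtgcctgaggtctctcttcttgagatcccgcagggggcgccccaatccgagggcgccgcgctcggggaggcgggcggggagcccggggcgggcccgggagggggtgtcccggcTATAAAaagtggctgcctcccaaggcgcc

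The stretch before Foxa2 held 1 CpG in 134 bases, that before Cebpa 22 in 250 bases and that before Foxa3 18 in 243 bases. The Foxa2 stretch is the shortest because it ends at GENCODE's first base of the gene. Motifs were counted over windows of 250 bases before to 50 after the RefSeq start, of which 32544 were in the set. Over these full windows Foxa2 held 12 CpGs, Cebpa 29 and Foxa3 22, against a median of 7 over all windows. Cebpa and Foxa3 both held TATAAA, the TATA box, starting 30 and 36 bases before the start. Of all windows 13.6% held these letters. Prox1 held TATAAA only on the opposite strand, written TTTATA on its own strand, 34 bases before its start. Foxa2 held ATTGATT, a spelling of the ONECUT site, 213 bases before its RefSeq start, as did 2.74% of all windows. That start lies 116 bases from GENCODE's canonical start of Foxa2. Foxa1 held the FOXA spelling TGTTTAC 141 bases before its start, against 3.66% of all windows. Onecut1 held the E-box CACGTG, against 7.17% of all windows. Nr5a2 held TTGCNNAA, a C/EBP spelling found in 10.8% of all windows, and TGATGNAA, a C/EBP-ATF spelling found in 3.91%. The Hnf4a window held none of the 10 spellings. The other spellings searched had no match before any of the 8 genes. These were TGTTTGC for FOXA factors, found in 5.08% of all windows, and CAAGGTCA for NR5A2, found in 1.53%. The HNF4 spelling CAAAGTCCA was found in 0.479% and the GATA spelling AGATAA in 11.2%. These matches describe letters only. The RefSeq start of Nr5a2 lies 4068 bases from its GENCODE canonical start and that of Prox1 184 bases.

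**Figure D1:**
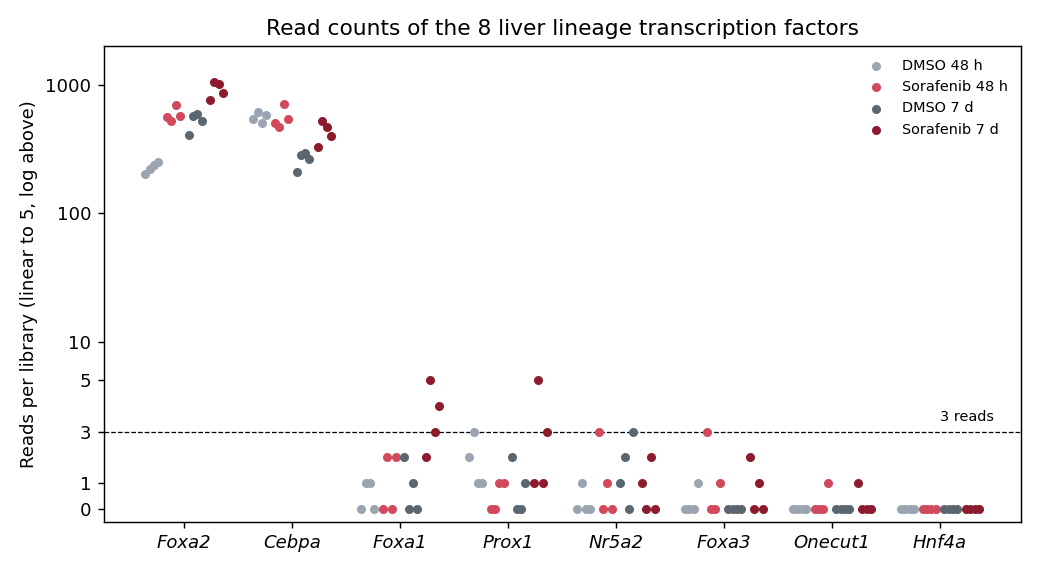
Reads counted on each of the 8 genes (x axis) in each of the 16 libraries (y axis, linear to 5 reads and logarithmic above; colours give the 4 groups; the dashed line is at 3 reads). Foxa2 and Cebpa lie between 200 and 1055 reads in every library, and no other gene exceeds 5 reads in any library.

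Hnf4a, the central hepatocyte factor, had 0 reads in all 16 libraries. Onecut1 had 1 read in 1 sorafenib 48 h library and 1 read in 1 sorafenib 7 d library. Foxa3 had 8 reads in all, with 3 as its highest count, in 1 sorafenib 48 h library. None of these 3 reached the minimum of 10 counts in total, so they were not tested. They were not detectable, or barely so, at this depth in any group.

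Nr5a2 had 14 reads in 8 of the 16 libraries, and 2 libraries reached 3 reads. Prox1 had 22 reads in 12 libraries, with a highest count of 5 in sorafenib 7 d replicate 2. Foxa1 had 23 reads in 10 libraries, also with a highest count of 5 in that library. These 3 passed the filter of 10 counts, but Foxa1 and Nr5a2 passed it only through the group where each was highest. Foxa1 had 14 reads in sorafenib 7 d and 9 in the other 12 libraries, and Nr5a2 6 in DMSO 7 d and 8 in the others. All 3 stayed at a group mean of at most 3.22 normalized counts, which is near the floor of 2.44 to 4.54 normalized counts per library. Normalized counts here are reads divided by a library's scale from TMM (trimmed mean of M-values), relative to the mean library.

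Foxa2 had 200, 221, 235 and 251 reads in the DMSO 48 h libraries and 561, 524, 695 and 570 in the sorafenib 48 h libraries. In the 7-day libraries it had 404, 569, 590 and 525 reads with DMSO and 764, 1055, 1004 and 868 with sorafenib. Sorafenib libraries lay above the DMSO libraries of the same time point without overlap at both times. Normalized for depth, Foxa2 stood at 211 ± 22.2 (SD, n = 4) with DMSO and 722 ± 78.4 with sorafenib at 48 hours. It stood at 480 ± 30.7 with DMSO and 862 ± 10.95 with sorafenib at 7 days. Every sorafenib library at either time was thus above every DMSO library at either time.

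Cebpa had 541, 609, 503 and 583 reads in the DMSO 48 h libraries and 500, 465, 712 and 543 in the sorafenib 48 h libraries. It had 209, 285, 293 and 265 reads with DMSO and 328, 517, 468 and 396 with sorafenib at 7 days. Raw reads of the 2 groups overlapped at 48 hours, and the normalized counts, which account for the shallower sorafenib 48 h libraries, did not. Normalized Cebpa stood at 519 ± 12.2 (SD, n = 4) with DMSO and 675 ± 40.4 with sorafenib at 48 hours. At 7 days it stood at 242 ± 11.5 with DMSO and 397 ± 22.5 with sorafenib. The order of its groups differed from that of Foxa2, since both 7-day groups were below both 48-hour groups.

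**Figure D2:**
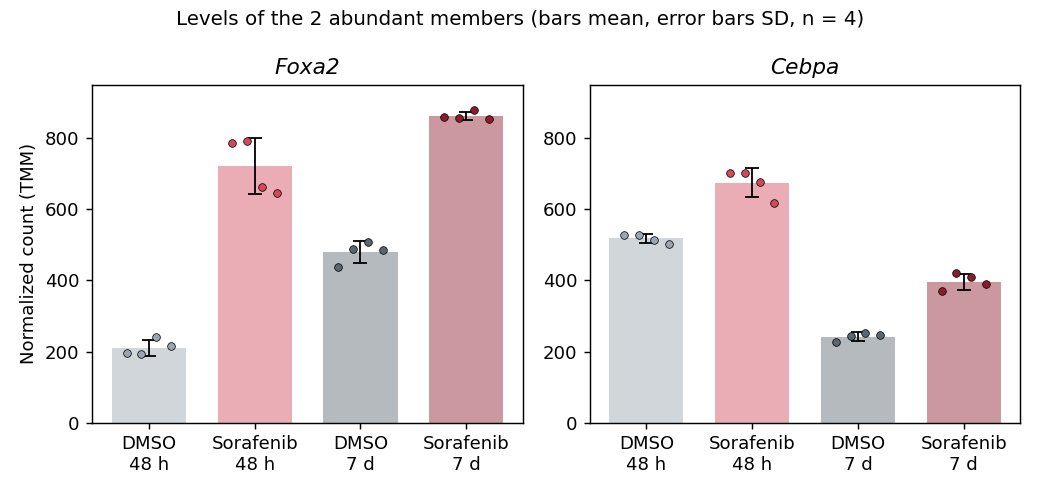
Normalized counts of Foxa2 (left) and Cebpa (right) in the 4 groups; points are libraries, bars the mean and error bars the SD (n = 4). For both genes the sorafenib bar is above the DMSO bar of the same time point, and from 48 hours to 7 days the bars rise for Foxa2 and fall for Cebpa.

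Sorafenib against DMSO at 48 hours asked how the genes differed after short exposure. Foxa2 rose 3.42-fold in mean normalized count, a log2 fold change of 1.77 ± 0.08 (SE; FDR = 1.46e-13, edgeR's quasi-likelihood F-test, Benjamini-Hochberg adjusted across 20444 genes). Cebpa rose 1.30-fold, with a log2 fold change of 0.38 ± 0.05 (FDR = 4.76e-06, edgeR). Both genes had an exact permutation p of 0.0286, which is the minimum for 2 groups of 4. Without sorafenib 48 h replicate 2, the library that stood apart, the log2 fold changes were 1.72 for Foxa2 (FDR = 1.80e-26, edgeR) and 0.36 for Cebpa (FDR = 7.33e-07, edgeR). Without the 3 DMSO libraries rich in Rmrp, Rn7sk and Rpph1, they were 1.79 and 0.37. These 2 were the genes called among the 5 that could be tested, where FDR under 0.05 called 54.6% of all tested genes, and 26.9% of all tested genes were called higher with sorafenib. Their libraries did not overlap between the groups, as held for 48.0% of all tested genes.

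The near-silent genes gave little at 48 hours. Foxa1 had 2 reads with DMSO and 4 with sorafenib, a depth-adjusted ratio of 2.61 (95% exact interval 0.374 to 28.8). For Prox1 the reads were 7 and 2, a ratio of 0.373 (0.0378 to 1.96). For Nr5a2 they were 1 and 4, a ratio of 5.22 (0.516 to 257), and Foxa3 had the same reads and ratio. Each of these intervals included 1, so no difference was detectable at this depth. The intervals cover counting error only.

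At 7 days, sorafenib against DMSO asked the same after prolonged exposure. Foxa2 rose 1.80-fold, with a log2 fold change of 0.84 ± 0.07 (FDR = 2.21e-09, edgeR). Cebpa rose 1.64-fold, with a log2 fold change of 0.71 ± 0.06 (FDR = 2.32e-09, edgeR). The exact permutation p was again 0.0286 for each. Without DMSO 7 d replicate 4 and the 2 DMSO 48 h libraries like it, the log2 fold changes were 0.85 and 0.72. At this time point 56.8% of all tested genes were called, and 28.9% of all tested genes were called higher with sorafenib, and the libraries of the 2 groups did not overlap for 56.8% as well.

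Foxa1 also passed the FDR threshold at 7 days, on few reads. Without its sorafenib 7 d reads it would have failed the filter, so a difference was built into its being tested, and the call is given as a description only. It had 2, 0, 1 and 0 reads with DMSO and 2, 5, 3 and 4 with sorafenib. The 2 groups met at 2 raw reads, and normalized values did not overlap only by depth, at 2.16 and 2.25. Its log2 fold change was 2.04 ± 0.86 (FDR = 0.0495, edgeR), and the ratio of reads was 4.72 (95% exact interval 1.32 to 25.6). The call was lost in 16 of 25 alternatives, among them DESeq2 (FDR = 0.0714) and leaving out each of sorafenib 7 d replicates 1, 2, 3 and 4 (FDR = 0.0523, 0.103, 0.0599 and 0.0908, edgeR) or DMSO 7 d replicates 2, 3 and 4 (FDR = 0.125, 0.0767 and 0.118, edgeR). It was also lost on leaving out any 1 of the DMSO 48 h libraries or sorafenib 48 h replicate 4, with FDR from 0.05002 to 0.0544 (edgeR).

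Prox1 had 2, 0, 0 and 1 reads with DMSO and 1, 5, 1 and 3 with sorafenib at 7 days, a ratio of 3.37 (95% exact interval 0.868 to 19.1). It was not called (FDR = 0.121, edgeR). It was called without DMSO 7 d replicate 1 (FDR = 0.0374, edgeR) and with limma voom (FDR = 0.0324). Nr5a2 had 6 reads with DMSO and 3 with sorafenib, a ratio of 0.506 (0.0818 to 2.37), and was not called (FDR = 0.516, edgeR). Foxa3 had 0 reads with DMSO and 3 with sorafenib, which is within the floor.

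The difference of the 2 sorafenib effects tested whether they changed with time. For Foxa2 the effect was smaller at 7 days than at 48 hours, by a difference of log2 fold changes of -0.93 ± 0.11 (SE; FDR = 7.45e-07, edgeR's interaction term). For Cebpa it was larger at 7 days, by 0.34 ± 0.08 (FDR = 0.00230, edgeR). The difference was called for 36.8% of all tested genes. Both values share the DMSO and sorafenib libraries of the 2 comparisons above, so they add no separate libraries. Without sorafenib 48 h replicate 2 the differences were -0.88 and 0.36.

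Between the 2 time points the 2 genes moved in opposite directions. In DMSO cells Foxa2 rose from 48 hours to 7 days by a log2 fold change of 1.19 ± 0.08 (FDR = 1.91e-10, edgeR), and Cebpa fell, with -1.10 ± 0.06 (FDR = 5.49e-12, edgeR). In sorafenib cells Foxa2 rose by 0.26 ± 0.07 (FDR = 0.00463, edgeR) and Cebpa fell, with -0.76 ± 0.06 (FDR = 9.64e-10, edgeR). Genes called between the time points were 49.4% of all tested genes in DMSO cells and 39.7% in sorafenib cells. Foxa1, Prox1 and Nr5a2 were not called in either. These 2 comparisons share their libraries with the treatment comparisons. Days in culture and the handling of each time point cannot be told apart.

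**Figure D3:**
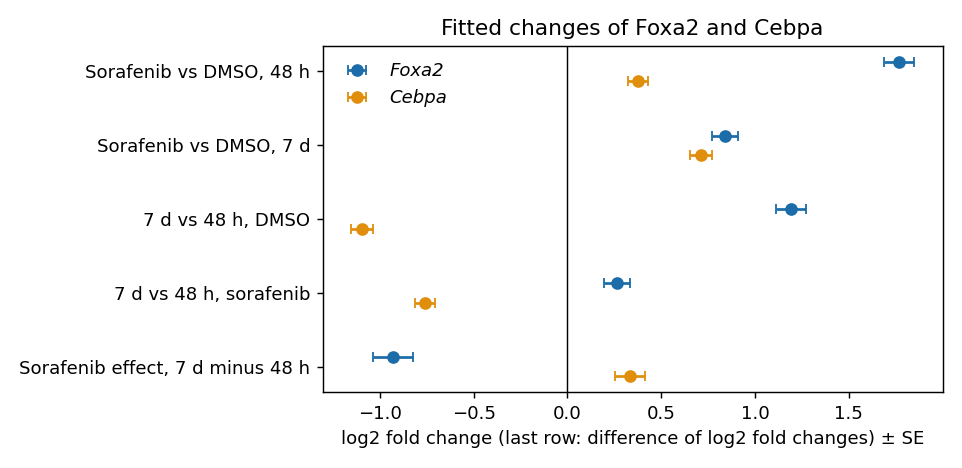
Log2 fold changes of Foxa2 (blue) and Cebpa (orange) in 5 comparisons (y axis), with the standard error of the edgeR fit as bars; the lowest row is a difference of log2 fold changes. Both genes lie to the right of 0 in both treatment comparisons, and on opposite sides of 0 in both time comparisons and in the difference between treatment effects.

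Foxa2 and Cebpa were set against each other within each library, a ratio that needs no scaling between libraries and was added after the data had been seen. Foxa2 reads per Cebpa read were 0.370, 0.363, 0.467 and 0.431 in DMSO 48 h libraries and 1.12, 1.13, 0.976 and 1.05 in sorafenib 48 h libraries. They were 1.93, 2.00, 2.01 and 1.98 with DMSO and 2.33, 2.04, 2.15 and 2.19 with sorafenib at 7 days. The 4 groups did not overlap. The mean ratio went from 0.408 ± 0.05005 (SD, n = 4) with DMSO to 1.07 ± 0.0711 with sorafenib at 48 hours, a log2 difference of 1.396 ± 0.10 (SE). At 7 days it went from 1.98 ± 0.0347 to 2.18 ± 0.120, a log2 difference of 0.13 ± 0.04. The exact two-sided permutation p was 0.0286, the smallest possible, in both comparisons and in the 2 comparisons over time. The log2 differences over time were 2.29 ± 0.09 in DMSO cells and 1.03 ± 0.06 in sorafenib cells.

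Levels of different genes can be compared only per length. Per kilobase of exon in GENCODE, Foxa2 stood at 62.1 ± 6.54, 213 ± 23.1, 141 ± 9.04 and 254 ± 3.22 normalized counts in DMSO 48 h, sorafenib 48 h, DMSO 7 d and sorafenib 7 d. Cebpa stood at 197 ± 4.62, 256 ± 15.3, 91.9 ± 4.35 and 151 ± 8.53 normalized counts per kilobase in the same order. On this scale Cebpa was the higher of the pair in both 48-hour groups and Foxa2 in both 7-day groups. The ratio per kilobase was 0.8293 ± 0.0552 in sorafenib 48 h, where the raw reads of the pair stood at 1.07. The near-silent genes had at most 0.956 normalized counts per kilobase in any group, Foxa1 in sorafenib 7 d.

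**Figure D4:**
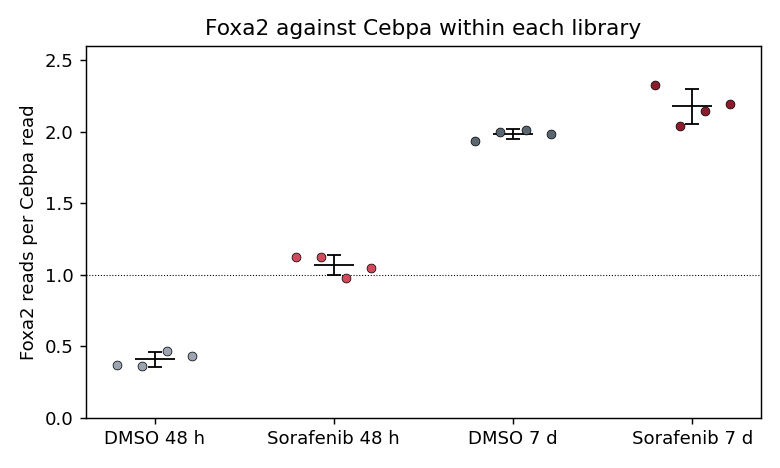
Reads of Foxa2 per read of Cebpa in each library (y axis, points) for the 4 groups (x axis); horizontal dashes are group means, error bars the SD (n = 4) and the dotted line a ratio of 1. The groups rise from 0.408 to 2.18 in the order shown, without overlap.

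Replicate spread of the 2 genes was small. The coefficient of variation of Foxa2 was 10.5%, 10.9%, 6.39% and 1.27% in the 4 groups, against 6.64%, 4.13%, 4.38% and 3.29% for counting error alone. For Cebpa it was 2.35%, 5.99%, 4.74% and 5.67%, against 4.23%, 4.24%, 6.17% and 4.84%. In rank of mean normalized count Foxa2 was 7588th and Cebpa 8144th of the 40840 genes.

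By correlation over the 16 libraries, among the 10660 genes averaging 100 counts or more, those whose log2 levels followed Foxa2 most closely were Fhdc1 (Pearson's r = 0.995, Spearman's rho = 0.988) and Amotl2 (0.994 and 0.985). Those nearest to Cebpa were Insr, the insulin receptor gene (0.985 and 0.941), and Celsr2 (0.985 and 0.953). The 16 points fall into 4 groups and share libraries, so these values describe the pattern over groups. Fhdc1 stood at 157 ± 15.7 and 1291 ± 65.7 normalized counts with DMSO and sorafenib at 48 hours, and at 629 ± 16.9 and 1666 ± 25.7 at 7 days. By Spearman's rho none of these 4 genes was among the 2 nearest to its gene.

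The paralogs of the 8 genes, members of the same protein families, showed which relatives were present. Of 10 paralogs 7 could be tested, and 4 had a mean of at least 100 counts, all of them C/EBP family genes. At 48 hours 2 were higher and 2 lower with sorafenib, with a median log2 fold change of 0.21 against -0.05 over all tested genes. At 7 days 4 were higher and 1 lower, with a median of 1.03 against 0.02. The calls over all tested genes made up 54.6% at 48 hours and 56.8% at 7 days. The genes called at 48 hours were Ddit3, Cebpg, Cebpd and Prox2, and at 7 days Ddit3, Cebpg, Onecut2, Onecut3 and Cebpb, of which Prox2 and Onecut3 are named after their values were seen. Onecut3 had 11 of its 13 reads in sorafenib 7 d and passed the filter only through that group, so its call and its share in the count and median at 7 days support nothing. With at least 10 counts required in every library, the 5 calls at 7 days became 3. Hnf4g, the paralog of Hnf4a, had 0 reads in all libraries, as did Cebpe.

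Ddit3, which encodes the stress-induced C/EBP factor CHOP, rose from 276 ± 16.2 to 3271 ± 195 normalized counts at 48 hours (log2 fold change 3.57, FDR = 7.00e-21, edgeR) and from 393 ± 11.3 to 2941 ± 57.6 at 7 days (2.90, FDR = 3.62e-20, edgeR). Cebpg, another C/EBP partner, rose with log2 fold changes of 1.48 and 1.03 (FDR = 3.86e-16 and 8.91e-14, edgeR). Cebpd fell at 48 hours, with -0.87 (FDR = 4.87e-07, edgeR), and at 7 days had -0.23 (FDR = 0.0703, edgeR). It lies on chromosome 16, and its 48-hour value was -0.74 without sorafenib 48 h replicate 2. Cebpb had 0.21 at 48 hours (FDR = 0.113, edgeR) and fell at 7 days, with -0.46 (FDR = 0.00106, edgeR). The C/EBP genes thus moved in different directions.

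Onecut2, the paralog of Onecut1, stood at 3.22 ± 1.07 normalized counts with DMSO and 3.66 ± 0.844 with sorafenib at 48 hours. At 7 days it stood at 3.86 ± 2.67 with DMSO and 14.6 ± 1.75 with sorafenib, where it rose with a log2 fold change of 1.86 (FDR = 1.26e-04, edgeR). Its highest count in any library was 17 reads.

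Of 22 other liver transcription factors 19 could be tested. At 48 hours 7 were higher and 6 lower with sorafenib, with a median log2 fold change of 0.14 against -0.05 over all tested genes. At 7 days 5 were higher and 6 lower, with a median of 0.17 against 0.02. Calls over all tested genes again made up 54.6% at 48 hours and 56.8% at 7 days. Atf5, an activating transcription factor abundant in liver, rose with log2 fold changes of 2.47 and 1.57 (FDR = 5.21e-20 and 1.19e-17, edgeR). Klf15, a regulator of fasting metabolism, rose by 2.44 and 2.31 (FDR = 2.45e-11 and 2.47e-10, edgeR). Nr1h4, the bile acid receptor FXR, rose by 2.33 and 0.67 (FDR = 4.10e-12 and 8.39e-06, edgeR). Zhx2, a repressor of Afp after birth, rose by 1.78 and 2.20 (FDR = 7.12e-10 and 1.31e-11, edgeR). It lies on chromosome 15, in the region low in sorafenib 48 h replicate 2, and its log2 fold change at 48 hours was 1.92 without that library.

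Gata4 and Gata6, endoderm factors that act with FOXA proteins in the early liver, are named here after their values were seen. Gata4 had a mean of 7561 normalized counts with DMSO and 3803 with sorafenib at 48 hours, and 6675 and 2982 at 7 days. Gata6 had 7488 and 4892 at 48 hours, and 7788 and 2939 at 7 days. Both fell at both times, with log2 fold changes from -0.61 to -1.41. Nr0b2, a target and partner of FXR and NR5A2, had at most 1 read in any library.

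**Figure D5:**
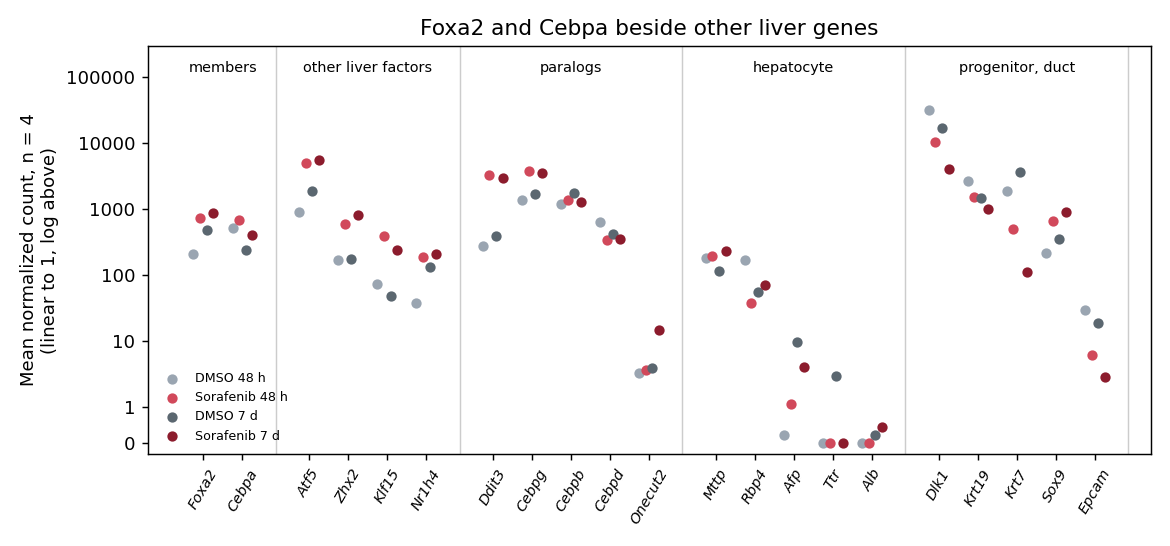
Mean normalized counts (y axis, linear to 1 and logarithmic above) of Foxa2, Cebpa and other liver genes (x axis, grouped by list) in the 4 groups (colours; n = 4 libraries each). Foxa2 and Cebpa lie between 211 and 862. Among the hepatocyte genes shown, the means of Alb, Ttr and Afp are at most 9.45, those of Rbp4 38.0 to 171 and those of Mttp 114 to 234.

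The labelled cell type was checked against marker genes. Of 28 hepatocyte genes 27 were in the table, 10 could be tested, and 18 had a mean under 1 normalized count, 7 of them with 0 reads in every library. Alb, the albumin gene, had 3 reads in all 16 libraries together, Fgb had 1, Apob had 6, and Apoc3, Fga, Fgg and Cyp7a1 had 0. Others of the list were read in every library, among them Apoa2 with 13 to 33 reads, Rbp4 with 21 to 235 and Mttp with 101 to 275. Apoa2 is named after its values were seen. Summed over the list, hepatocyte genes stood at 15.1 to 17.5 CPM in DMSO 48 h, 11.5 to 12.8 in sorafenib 48 h, 9.15 to 11.2 in DMSO 7 d and 14.1 to 15.3 in sorafenib 7 d. Alb, Fgb, Apob, Apoc3, Fga, Fgg and Cyp7a1 were thus at or near 0 with and without sorafenib, while Apoa2, Rbp4 and Mttp were not. On the CPM scale of these sums, Foxa2 averaged 8.39, 28.7, 19.1 and 34.3 in the same group order. Cebpa averaged 20.6, 26.8, 9.64 and 15.8 CPM. The sum of the list was therefore above Foxa2 in DMSO 48 h. In normalized counts, a smaller unit that gives larger values, Foxa2 and Cebpa averaged 211 to 862 and 242 to 675 by group.

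At 48 hours 1 hepatocyte gene was higher and 2 were lower, and at 7 days 4 were higher and 3 lower. The share called over all tested genes was 54.6% at 48 hours and 56.8% at 7 days. Named after their values were seen, Cps1 was the higher gene at 48 hours, and Rbp4 and Hp were the lower ones. At 7 days Mttp, Rbp4, Cps1 and Ahsg were higher, and Hp, Ttr and Afp lower. Ttr passed the filter only through DMSO 7 d, which held all of its 12 reads, so its call supports nothing. The 7 calls at 7 days became 4 without DMSO 7 d replicate 1, without DMSO 7 d replicate 4, without sorafenib 7 d replicate 3, without the 3 DMSO libraries together, and with DESeq2. They became 2 with at least 10 counts required in every library. Mttp, which loads lipid onto lipoproteins, had a log2 fold change of 0.11 at 48 hours (FDR = 0.310, edgeR) and rose by 1.04 at 7 days (FDR = 5.18e-09, edgeR). Rbp4, the retinol carrier, fell at 48 hours, with -2.18 (FDR = 1.93e-11, edgeR), and rose by 0.34 at 7 days (FDR = 0.0378, edgeR). It lies on chromosome 19, and its 48-hour value was -2.12 without sorafenib 48 h replicate 2. Afp stood at 9.45 ± 3.91 normalized counts in DMSO 7 d and 4.01 ± 2.74 in sorafenib 7 d, with values that overlapped (FDR = 0.0481, edgeR). Apoa1, an HDL protein gene, had at most 3 reads in any library. Ttr had 12 reads, all in DMSO 7 d.

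Progenitor and bile duct markers were present. Of 14 markers 9 had a mean of at least 100 counts. At each time point 3 were higher and 8 lower with sorafenib. The median log2 fold change was -0.48 at 48 hours and -0.43 at 7 days, against -0.05 and 0.02 over all tested genes. Of all tested genes 54.6% were called at 48 hours and 56.8% at 7 days. The higher genes included Sox9 and Spp1 at 48 hours and Sox9 and Cdh1 at 7 days, of which Spp1 is named after its values were seen. Summed over the list, these markers stood at 1904 to 1954 CPM in DMSO 48 h, 861 to 954 in sorafenib 48 h, 1250.2 to 1336 in DMSO 7 d and 533 to 551 in sorafenib 7 d. Their part in the Foxa2 and Cebpa results was not tested. Dlk1, a surface marker of hepatoblasts, fell from 32234 ± 841 to 10444 ± 847 normalized counts at 48 hours and from 16766 ± 807 to 4020 ± 84.9 at 7 days. Krt7 and Krt19, duct keratins, fell with log2 fold changes of -1.93 and -0.77 at 48 hours and -5.02 and -0.52 at 7 days. Epcam fell as well, from 29.3 ± 4.08 to 6.17 ± 4.26 at 48 hours. It lies on chromosome 17, and its 48-hour log2 fold change was -2.13, or -1.87 without sorafenib 48 h replicate 2. Sox9, a duct and progenitor factor, rose from 213 ± 26.6 to 664 ± 55.5 at 48 hours (log2 fold change 1.64, FDR = 5.71e-13, edgeR) and from 350 ± 18.4 to 904 ± 47.4 at 7 days (1.37, FDR = 1.84e-12, edgeR). Cdh1, E-cadherin, had 0.30 at 48 hours (FDR = 0.0508, edgeR) and rose by 1.39 at 7 days (FDR = 7.51e-11, edgeR). The keratins Krt8 and Krt18 fell at both times, with log2 fold changes from -0.40 to -1.10. Krt7, Krt8 and Krt18 lie on chromosome 15, and without sorafenib 48 h replicate 2 their 48-hour values were -1.87, -0.51 and -0.28. The Krt18 libraries of the 2 groups overlapped at 48 hours.

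Markers of other cells moved beside these genes. Mesenchymal markers, 11 in the list with 9 tested, summed to 5620 to 5733 CPM in DMSO 48 h, 9340 to 9843 in sorafenib 48 h, 5942 to 6147 in DMSO 7 d and 7704 to 7846 in sorafenib 7 d. At 48 hours 5 were higher and 3 lower, and at 7 days 4 were higher and 5 lower. Over all tested genes 54.6% were called at 48 hours and 56.8% at 7 days. Acta2 rose with a log2 fold change of 3.81 at 48 hours and 1.39 at 7 days, Vim rose by 1.12 and 0.96, Col1a2 by 1.75 and 0.67 (overlapping libraries at 7 days), and Col3a1 fell, with -0.61 and -2.13. Acta2 lies on chromosome 19, and its 48-hour value was 3.93 without sorafenib 48 h replicate 2. Dcn rose by 0.43 at 48 hours and fell at 7 days, with -2.30. Lrat, which marks hepatic stellate cells, had 0 reads, and Reln had 4 in all libraries together. Other markers of the list were read in every library, with 12 to 114 reads for Des, 434 to 2011 for Pdgfrb and 39863 to 81817 for Col1a1. Reln, Des, Pdgfrb and Col1a1 are named after their values were seen. In bulk RNA a change in the share of cells and a change in RNA per cell cannot be told apart, and the part of these genes in the Foxa2 and Cebpa results was not tested.

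Endothelial markers, 4 of 5 tested, summed to at most 9.08 CPM, with Cdh5 at 3 reads in all. Kdr alone of them reached over 100 normalized counts in any group, and it rose with log2 fold changes of 1.32 and 2.65. Among all tested genes 54.6% were called at 48 hours and 56.8% at 7 days. At 48 hours 1 endothelial marker was higher and 1 lower, and at 7 days 1 was higher and 2 lower. The lower ones were Tek at both times and Emcn at 7 days, named after their values were seen. Emcn had 8 of its 11 reads in DMSO 7 d and passed the filter only through that group, so its call supports nothing. The 3 calls at 7 days became 1 without DMSO 7 d replicate 3 or any of sorafenib 7 d replicates 2, 3 and 4, with the replicate block, and with at least 10 counts required in every library. Macrophage and leukocyte markers, 2 of 6 tested, summed to at most 6.24 CPM. Adgre1 and Clec4f had 0 reads, and Csf1r, named after its values were seen, fell at 7 days. At 48 hours edgeR called 0 of the 2, and 1 without sorafenib 48 h replicate 1. Factors of other endoderm lineages had 1 read in all, on Cdx1, and the other 6 of 7, Pdx1 and Cdx2 among them, had 0 reads in every library.

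Overlap with other genes could touch the counts of some members. Hnf4aos and Prox1os, noncoding genes on the opposite strand of Hnf4a and Prox1, had 0 reads in every library. Exons of Prox1 and Prox1os share 976 bases. Cebpa shares 51 exonic bases with an opposite-strand noncoding gene that has no row in the table. The strand setting of the counting is not given in the sources used here, so reads on these shared bases cannot be assigned with certainty. Onecut1 shares 464 exonic bases with an opposite-strand noncoding gene and 2171 with one on its own strand, and Nr5a2 415 with an opposite-strand one, none of which has a row in the table. Foxa1, Foxa2 and Foxa3 had no overlapping gene in GENCODE.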

How the data were processed

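Total RNA from 16 libraries was prepared by the authors with the Illumina Stranded mRNA Prep kit and sequenced on a NovaSeq. The reads were aligned to GRCm39 with STAR 2.7.1a, and the submitters' processing notes name featureCounts 2.0.6 (Subread) and DESeq2 1.40.2. The deposited values are raw counts per gene, which the authors had not normalized. The counting's strand setting and annotation are not given in the sources used here.

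Genes with at least 10 counts in total were kept (20444 of 40840) and tested in edgeR 4.0.16 (R 4.3.3) with TMM scaling and the quasi-likelihood F-test, all 4 groups in 1 model. A gene was called where its FDR (Benjamini-Hochberg) was under 0.05. For single members a two-sided exact permutation test was run on log2(normalized count + 1), 4 libraries against 4. Ratios of few reads had exact binomial 95% intervals. Gene positions and exon lengths came from GENCODE on GRCm39. The steps were tested on simulated data.

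The members and all gene lists were chosen with earlier results of these data known. Besides the members, the text names the 3 called genes of each list with the largest change at each time point and a mean of at least 100 normalized counts, a set list of marker genes such as Alb and Sox9, and the 2 genes most correlated with Foxa2 and with Cebpa. Of the list names, Tf, Foxa2os and Cebpaos matched no row. A few list genes are not reported here by name. Alternatives were DESeq2 1.42.0, limma 3.58.1 voom with quality weights, other scalings and filters, a replicate block, only the groups compared, and leaving out each library. After the data were seen, leaving out 3 DMSO libraries together and the ratio of Foxa2 to Cebpa were added. No pair of replicates within a group matched to within sampling noise, since their chi-square was at least 1.58 per gene.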

Additional observations from a re-analysis of the deposited data

Results flagged for a closer look

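The sorafenib effect differed between the 2 time points for Foxa2, by a test of the difference itself (log2 fold change at 7 days minus that at 48 hours, -0.93, FDR = 7.45e-07, edgeR). All 4 sorafenib libraries were above all 4 DMSO libraries at both times.

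For Cebpa the same difference was 0.34 (FDR = 0.00230, edgeR), of the opposite sign, and its sorafenib libraries were also above the DMSO libraries at both times after scaling.

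No library of a group lay far from the other 3 by Dixon's criterion for Foxa2, for Cebpa or for their ratio, in 12 groups tested.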

How the results depend on the processing

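The log2 fold changes of Foxa2 and Cebpa kept their direction and their call in all 26 alternatives of each pairwise comparison and all 25 of the difference between times. Foxa2 ranged from 1.69 to 1.81 at 48 hours and from 0.80 to 0.87 at 7 days, Cebpa from 0.31 to 0.42 and from 0.68 to 0.74. No alternative moved the number of genes called in a comparison by more than 1.5 times (9196 to 11608 at 48 hours, 9146 to 12953 at 7 days, 6160 to 8761 for the difference). The fit of only the groups compared gives no value for the difference. With total counts in place of TMM the difference between times had 55.6% of its calls positive, against 42.1%. Without division by exon length the Foxa2 to Cebpa ratio was 0.408, 1.07, 1.98 and 2.18 in DMSO 48 h, sorafenib 48 h, DMSO 7 d and sorafenib 7 d, where sorafenib 48 h crosses 1. Among the low genes, Prox1's difference between times was called without DMSO 7 d replicate 1 only (FDR = 0.0370, edgeR), and Foxa1 between the sorafenib time points with limma voom only (FDR = 0.0352).

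Same-numbered replicates showed little shared deviation (correlations of -0.18 to 0.13 over genes). This cannot exclude that the numbers pair the libraries, since replicates of unlike number were not compared. With the replicate number as a block, 10644 genes were called at 48 hours, 11027 at 7 days and 6987 for the difference. Foxa2 had 1.77 and 0.84 and Cebpa 0.38 and 0.71, and Foxa1 at 7 days was not called (FDR = 0.119, edgeR).

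Depth limited 6 of the 8 genes, whose counts did not exceed 5 reads in any library. With at least 10 counts required in every sample, a filter that leaves fewer genes to test, hepatocyte calls went from 3 to 1 at 48 hours and from 7 to 2 at 7 days, endothelial calls from 2 to 1 and from 3 to 1, paralog calls from 5 to 3 at 7 days, and macrophage and leukocyte calls from 1 to 0 at 7 days. The block took endothelial calls at 7 days from 3 to 1.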
